A study of Mus musculus with 2 samples.

Results

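The genes described here are 9 transcripts known to be raised when cells run short of oxygen, Ndufa4l2, Ndrg1, Bnip3, Egln1, Egln3, Aldoc, Bhlhe40, Vegfa and Ankrd37, found by their symbols among the 55415 features of the deposited tables. All 9 were present and all 9 were detected in both libraries. They were chosen by symbol with the counts of these same cells already seen, so their variation from cell to cell is given as a description. The cells were a mouse embryonic stem cell line (mESC, cells that renew themselves in a dish and can form every embryonic tissue) engineered so that the promoter of the endogenous retrovirus MERVL drives GFP, with a nuclear H2B-mIFP label by which cells are followed, and both groups carry these transgenes. MERVL and the Zscan4 genes are transcribed in a small fraction of such cells, called 2C-like because they share transcripts with the 2-cell embryo, and the series set out to trace what happens to these cells. Single-cell RNA was read as 1 library labelled MERVL GFP positive (4596 cells kept of 4603, 138303336 molecule counts or UMIs) and 1 labelled MERVL GFP negative (3832 cells, 156406894 UMIs). The labels give no treatment, oxygen level, time or culture medium, and no clone or strain.

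When oxygen is plentiful, prolyl hydroxylases of the EGLN family mark the alpha subunits of the hypoxia-inducible factors (HIF), and the VHL ubiquitin ligase then has them destroyed. When oxygen is scarce the alpha subunits persist, pair with ARNT and bind short elements with a core of ACGTG or GCGTG near their target genes. Targets shift metabolism from respiration to glycolysis, call for blood vessels, and include EGLN genes themselves, which closes a feedback loop. Embryonic stem cells grow in dense colonies and are already strongly glycolytic.

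With 1 library per group, no difference between the libraries has a replicate check and no test was run. Intervals in parentheses are 95% intervals for counting error only: exact Poisson for levels, exact binomial (Clopper-Pearson) for shares, and exact conditional for ratios. In the labels the batch is the library itself, and the part of batch in a difference between groups cannot be told apart from that of the reporter. The median cell had 29554.5 UMIs in the positive and 39099.5 in the negative library, with 2.56% and 1.60% of them mitochondrial, and the libraries share 3 cell barcodes. To set aside this difference in depth, shares of cells were taken after each cell was thinned at random to 10000 UMIs, which left 4402 positive-library and 3824 negative-library cells and dropped 194 and 8 shallower cells. GFP itself had 205 and 0.454 CPM (CPM are UMIs scaled to the same total in every library), in the order positive, negative, and so was highest in the library labelled positive. Pluripotency markers were present in both (Pou5f1 278 and 389 CPM, Sox2 454 and 529 CPM), and the primitive endoderm markers summed to 0.0207% and 0.0102% of UMIs. The 6 fibroblast markers summed to 0.00128% and 0.000313% of UMIs: Thy1 had 9.29 and 2.15 CPM, Col1a1 had 1.80 and 0.844 CPM and Col1a2 had 1.67 and 0.134 CPM, higher in the positive library, and Col3a1, Postn and Dcn had 6, 3 and 1 UMIs in the positive and 0, 0 and 1 in the negative library. The part of such cells in the results was not tested.

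The promoters show how the members differ at the letters of the element. Of the 9 members, 6 had an upstream window in RefSeq (GRCm38.p6). Ndufa4l2, Ndrg1 and Bhlhe40 had none. The 250 bases before the first listed start site were searched for ACGTG on either strand, which 16.6% of all 32851 windows of that length hold. The windows of Bnip3, Egln1, Egln3 and Ankrd37 hold it, and those of Aldoc and Vegfa do not. The windows of 3 of the genes that held a match and of the 2 that held none are printed 5′ to 3′ on the strand of the gene, with the matches in capitals. The Bnip3 window is chr7:138909507-138909756, minus strand. The Egln3 window is chr12:54203875-54204124, minus strand. The Ankrd37 window is chr8:45999851-46000100, minus strand. The Aldoc window is chr11:78322823-78323072, plus strand. The Vegfa window is chr17:46032378-46032627, minus strand.
Bnip3: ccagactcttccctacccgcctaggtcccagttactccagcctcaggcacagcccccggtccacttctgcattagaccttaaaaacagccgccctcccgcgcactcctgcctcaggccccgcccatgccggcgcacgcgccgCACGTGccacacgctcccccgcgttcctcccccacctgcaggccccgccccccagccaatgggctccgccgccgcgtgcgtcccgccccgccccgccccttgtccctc
Egln3: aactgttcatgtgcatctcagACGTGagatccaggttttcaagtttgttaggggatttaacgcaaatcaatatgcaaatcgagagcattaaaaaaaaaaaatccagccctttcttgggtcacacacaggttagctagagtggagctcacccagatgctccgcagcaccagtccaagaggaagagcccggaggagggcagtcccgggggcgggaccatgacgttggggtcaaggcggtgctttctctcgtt
Ankrd37: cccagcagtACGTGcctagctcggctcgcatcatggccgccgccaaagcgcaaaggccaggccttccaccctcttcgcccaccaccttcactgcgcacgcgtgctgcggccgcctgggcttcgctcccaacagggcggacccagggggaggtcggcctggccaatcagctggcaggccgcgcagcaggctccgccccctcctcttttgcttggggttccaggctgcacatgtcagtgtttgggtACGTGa
Aldoc: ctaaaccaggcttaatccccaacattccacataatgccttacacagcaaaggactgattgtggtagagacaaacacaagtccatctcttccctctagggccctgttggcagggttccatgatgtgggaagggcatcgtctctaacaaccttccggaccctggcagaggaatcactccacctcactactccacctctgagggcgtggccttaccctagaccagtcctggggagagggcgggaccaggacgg
Vegfa: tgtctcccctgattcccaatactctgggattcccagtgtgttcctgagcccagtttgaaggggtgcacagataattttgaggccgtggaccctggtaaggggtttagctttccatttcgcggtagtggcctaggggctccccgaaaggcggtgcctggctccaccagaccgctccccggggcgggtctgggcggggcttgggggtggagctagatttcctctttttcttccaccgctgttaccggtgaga
In Bnip3 the match starts 108 bases upstream of the start site and reads CACGTG, so that both strands carry the element at 1 place. In Egln3 it starts 229 bases upstream. Ankrd37 has 2 places, 241 and 6 bases upstream, and the Egln1 window has 1 place, 68 bases upstream. The second letter form, GCGTG, is in 28.2% of all windows and matched in those of Bnip3, Egln1, Aldoc and Ankrd37. A second, internal Vegfa start site, which RefSeq also lists, has an ACGTG match 211 bases upstream. These are matches of letters and say nothing of binding, and a window without a match says only that the letters are not in those bases.

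Summed over cells, most members were somewhat higher in the reporter-negative library, by less than a factor of 2. Vegfa, the secreted signal for vessel growth, had 9.02 CPM (8.53 to 9.54) in the positive library, against 15.6 CPM (15.03 to 16.3) in the negative, for a ratio of 1.73 (1.62 to 1.86). Bhlhe40, a repressor of transcription of the basic helix-loop-helix class, had 3.56 CPM (3.25 to 3.89) and 6.34 CPM (5.95 to 6.75), a ratio of 1.78 (1.60 to 1.99). Egln1, the main oxygen-sensing prolyl hydroxylase, had 23.2 CPM (22.4 to 24.04) and 34.2 CPM (33.2 to 35.1), a ratio of 1.47 (1.41 to 1.54). In none of these 3 did the counting intervals of the libraries overlap.

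Ndufa4l2, a mitochondrial protein that takes part in lowering respiration, had 17.1 CPM (16.4 to 17.8) and 23.0 CPM (22.2 to 23.7). Ndrg1, a stress-responsive cytoplasmic protein, had 5.12 CPM (4.75 to 5.51) and 6.26 CPM (5.87 to 6.66). Bnip3, which sends mitochondria to autophagy, had 55.5 CPM (54.2 to 56.7) and 63.3 CPM (62.1 to 64.6). The negative library was the higher for each of these, by ratios of 1.34, 1.22 and 1.14. Egln3, an oxygen-sensing hydroxylase that is itself a HIF target, had 9.96 CPM (9.44 to 10.5) and 9.97 CPM (9.48 to 10.5), and Aldoc, a glycolytic aldolase, had 13.1 CPM (12.5 to 13.7) and 13.4 CPM (12.8 to 14.0). Their intervals overlapped. For Egln3 the log2 ratio, positive over negative, was -0.0015, moved to -0.27 under TMM, and turned sign on thinned counts (0.04) and under the stricter cell filter (0.0044). Ankrd37, a small ankyrin-repeat protein, was the exception, with 17.6 CPM (16.9 to 18.3) in the positive and 13.0 CPM (12.5 to 13.6) in the negative library, and it stayed higher in the positive library under each of the other scalings and after thinning. Ndufa4l2, Ndrg1, Bnip3, Bhlhe40 and Ankrd37 overlap genes on the opposite strand (Shmt2 for Ndufa4l2, and Ufsp2 and Lrp2bp for Ankrd37, for example), and whether the counting used strand is not given in the sources used here, so a share of those counts could belong to the partner.

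**Figure D1:**
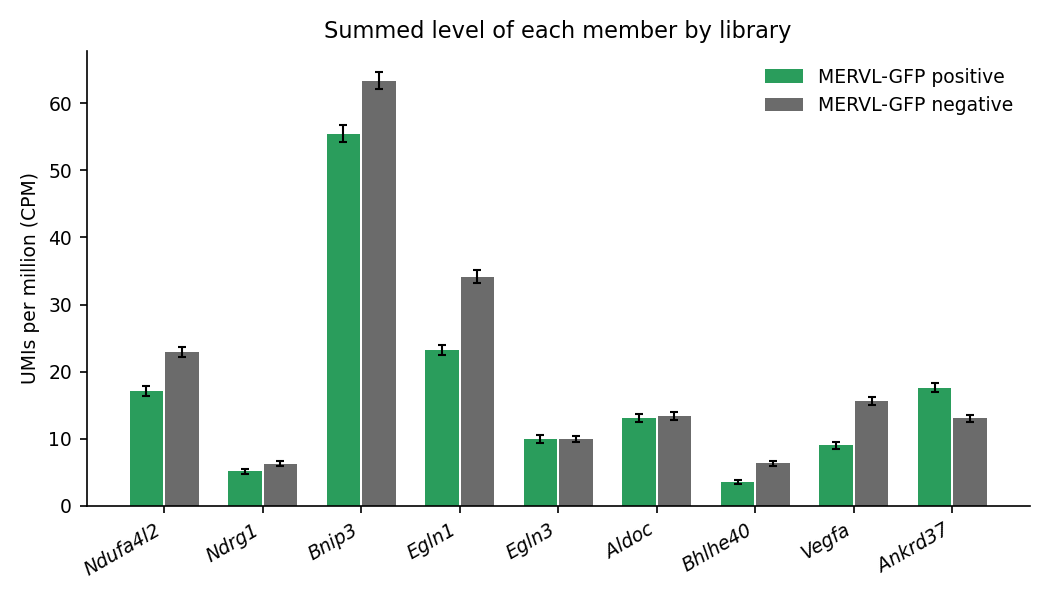
Summed level of each member in CPM (vertical axis, starting at 0), with green bars for the MERVL-GFP positive and grey bars for the MERVL-GFP negative library and lines for exact Poisson 95% intervals (counting error only, 1 library a group). Egln1, Vegfa and Bhlhe40 were lower and Ankrd37 was higher in the positive library, while Egln3 and Aldoc had overlapping intervals.

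The log2 ratios of CPM + 1, positive over negative, ran from -0.73 for Vegfa to 0.41 for Ankrd37, with a median of -0.25 over the 9 members. The median over the 8042 genes with at least 10 CPM in a library and at least 50 UMIs was 0.14, and 8 of the 9 members lay below it. Of the 6 members that met the 10 CPM minimum (Ndrg1, Egln3 and Bhlhe40 did not), 0 were higher and 0 were lower by a factor of at least 2, against 7.01% of the 8042 genes higher and 0.995% lower. With 6 members a count of 0 is near that background. The scaling moves this split: 564 genes were higher and 80 lower with CPM, and 378 were higher and 260 lower with TMM, under which the median of all genes moved to -0.16, that of the members to -0.50, and Vegfa passed the factor of 2 at -1.002.

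The share of cells with a UMI of a member followed the summed levels. After thinning, Egln1 was seen in 18.1% (17.0 to 19.3) of the positive and 26.7% (25.3 to 28.1) of the negative cells. Vegfa was seen in 8.43% (7.62 to 9.29) and 14.2% (13.1 to 15.4), and Bhlhe40 in 3.27% (2.77 to 3.84) and 6.41% (5.65 to 7.23). Ankrd37 went the other way, with 15.7% (14.6 to 16.8) and 10.3% (9.36 to 11.3). Bnip3 was seen in 31.6% (30.2 to 33.0) and 33.2% (31.7 to 34.7), Ndufa4l2 in 12.9% (11.9 to 13.9) and 15.01% (13.9 to 16.2), and Aldoc in 11.5% (10.5 to 12.5) and 12.4% (11.4 to 13.5). Ndrg1 was seen in 4.38% (3.80 to 5.03) and 5.96% (5.23 to 6.76), and Egln3 in 8.59% (7.78 to 9.45) and 8.73% (7.86 to 9.67). These shares rest on thinned cells: at full depth, where the libraries differ, Bnip3 was seen in 55.9% and 65.0% of cells and Vegfa in 20.8% and 41.9%. A few cells were far above the rest, up to 51 Bnip3 UMIs in a positive-library cell and up to 21 Ndufa4l2 UMIs in a negative-library cell before thinning. No cell type known to lack these genes was at hand to set a background for free RNA.

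The members were found together in the same cells more often than their single shares would give, in both libraries, and the pairs with Vegfa lay nearest to that number. For each of the 36 pairs the number of thinned cells with both members was divided by the number given by the product of the 2 shares. The median ratio was 1.69 in the positive library (0.963 to 3.80 over pairs, above 1 in 35 of 36) and 1.84 in the negative library (1.01 to 3.07, above 1 in 36 of 36). The highest ratio in the positive library was that of Ndrg1 with Bhlhe40, seen together in 24 cells where the product gave 6.31. In the negative library it was that of Ndufa4l2 with Ndrg1, seen together in 105 cells where the product gave 34.2. Ndufa4l2 with Bnip3, both mitochondrial proteins, had the highest correlation, and occurred together in 326 cells against 179 in the positive library and 426 against 191 in the negative library; the Pearson correlation of log2(UMIs + 1) across cells was 0.34 and 0.52 (4402 and 3824 cells, each from 1 library). Spearman's rho for this pair was 0.26 and 0.44.

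Over the 8 pairs with Vegfa the median ratio was 1.13 in the positive and 1.14 in the negative library, whereas over the 28 pairs without it the median was 1.81 and 1.97. The ranges overlapped: pairs with Vegfa were above 1 in 7 of 8 and 8 of 8, and the lowest pair without it, Egln1 with Ankrd37 in both libraries, was at 1.19 and 1.38. Vegfa with Bnip3 gave 128 cells against 117 by the product in the positive library, and 196 against 181 in the negative library. Vegfa with Ankrd37 gave 56 against 58.2 and 62 against 56.1. The highest ratio of any Vegfa pair was 1.30, with Ndufa4l2, in the positive library and 1.44, with Aldoc, in the negative library. The correlation of Vegfa with the sum of the other 8 members was 0.04 and 0.05, and that of every other member ran from 0.21 to 0.43 in the positive and from 0.29 to 0.57 in the negative library. In counts this sparse a correlation as weak as that of Vegfa is no finding by itself. Bhlhe40 (0.21 and 0.29) and Ndrg1 (0.23 and 0.32) were seen in fewer thinned cells than Vegfa in both libraries. The part of sparseness in these correlations was not tested.

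**Figure D2:**
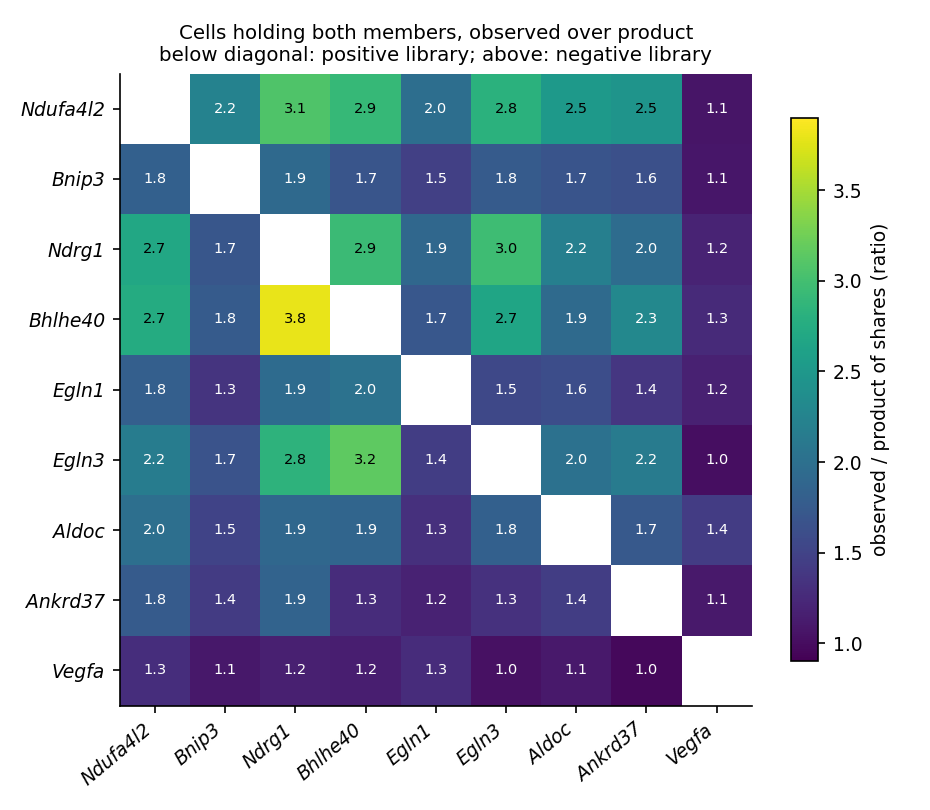
Number of thinned cells that hold both members of a pair, divided by the number given by the product of the single shares, as a colour and a rounded number for each pair; the positive library is below the diagonal and the negative library above it. The Vegfa row and column stay between 0.963 and 1.44, and the pairs among Ndufa4l2, Ndrg1, Bhlhe40 and Egln3 are the highest.

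A small share of cells held many members at once. In the positive library 35.9% of thinned cells held a UMI of 0 members and in the negative library 33.2% did. Cells were called responding here when they held at least 5 of the 9 members, the smallest number for which the product of single shares gives under 1% of cells in both libraries. By that measure 109 of 4402 positive-library cells responded, 2.48% (2.04 to 2.98), where the product gave 0.180%. The negative library had 178 of 3824, a share of 4.65% (4.01 to 5.37), where the product gave 0.379%. The share was 1.88 times (1.47 to 2.41) as high in the negative library. The number given by the product was itself higher in that library. Observed over product was 13.8 in the positive and 12.3 in the negative library, so relative to the single shares the negative library was not the higher.

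The threshold cuts through a continuous range. Just outside it, 125 positive-library and 170 negative-library cells held 4 members, and just inside it 67 and 95 held 5. At the far end, 8 positive-library and 34 negative-library cells held at least 7 members, and 3 negative-library cells held all 9. In the positive library 0 of 4402 cells held all 9, and the interval of that share reaches 0.0838%. The responding cells held 16.9% of all thinned member UMIs in the positive and 25.9% in the negative library, so that most of the members' transcripts lay outside them. Without the 3 barcodes that the libraries share the responding shares were 2.43% and 4.66%. Responding cells were not the deepest: their median was 26153 UMIs against 30309 in other cells of the positive library, and 33065.5 against 39430.5 in the negative library. Their median mitochondrial share was 2.06% against 2.53%, and 1.56% against 1.60%. Doublets were not called, and leaving out cells above 2 times their library's median depth gave 2.53% and 4.75%.

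**Figure D3:**
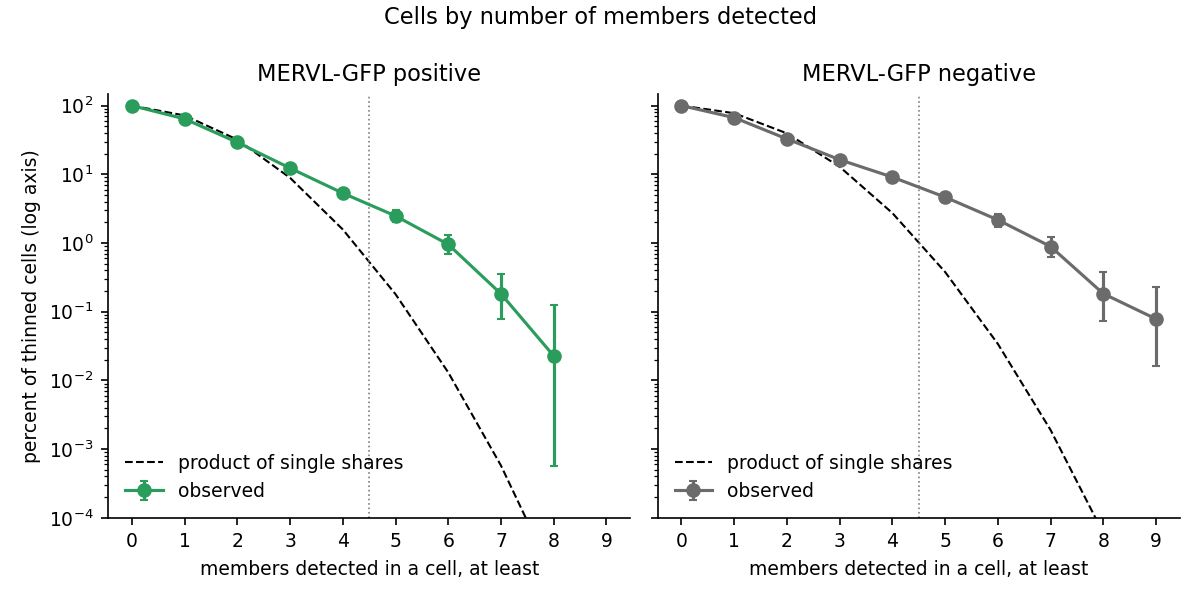
Percent of thinned cells (vertical log axis) that hold at least the number of members on the horizontal axis, as points with exact binomial 95% intervals, beside the product of the single shares (dashed), in the positive (left) and negative (right) library. The observed line lies below the dashed line at 1 and 2 members (64.1% against 71.8% and 29.1% against 32.0% in the positive library, 66.8% against 77.5% and 32.7% against 39.5% in the negative) and above it from 3 members on, and the dotted vertical line marks the threshold for responding cells, which 2.48% and 4.65% of cells passed.

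To see how each member follows the rest without using its own counts, cells were classed by how many of the other 8 members they held. The set itself was chosen with the counts of these cells seen, so these values are a description. Ndufa4l2 moved over the widest range. In the negative library it had 5.32 CPM (4.73 to 5.97) in the 1335 cells with 0 of the others and 163 CPM (154 to 172) in the 215 cells with 4 or more, 30.5-fold (26.9 to 34.8) higher, and a UMI of it was seen in 4.94% and 74.4% of those cells. In the positive library the levels were 7.03 and 131 CPM, 18.6-fold (16.3 to 21.3) higher. Bnip3 went from 28.8 to 324 CPM in the negative and from 31.9 to 345 CPM in the positive library, 11.3-fold and 10.8-fold higher. Ndrg1 was 14.9-fold and 15.6-fold higher, in the order negative, positive, Egln3 was 10.7-fold and 8.94-fold higher, and Bhlhe40 was 8.23-fold and 10.7-fold higher. Aldoc (6.66-fold and 5.51-fold), Ankrd37 (6.12-fold and 3.81-fold) and Egln1 (4.84-fold and 5.91-fold) moved less.

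Vegfa stood apart here as well. It had 15.2 CPM (14.2 to 16.2) in the 1465 negative-library cells with 0 of the other members and 20.03 CPM (17.5 to 22.9) in the 311 cells with 4 or more, 1.32-fold (1.13 to 1.53) higher. In the positive library it had 9.24 CPM (8.45 to 10.1) and 13.3 CPM (10.4 to 16.6), 1.44-fold (1.11 to 1.83) higher. The interval of the Vegfa ratio did not reach that of any other member in either library. Vegfa was lower in the positive library in every class, with intervals that did not overlap. In the highest class Ndufa4l2 was lower in the positive library as well (131 and 163 CPM), and so, with overlapping intervals, were Bhlhe40 (22.1 and 28.5 CPM) and Egln1 (98.8 and 113 CPM). Ankrd37 (49.4 and 49.7 CPM), Aldoc (50.3 and 51.4 CPM), Ndrg1 (34.9 and 34.2 CPM) and Egln3 (51.3 and 48.7 CPM) were close there. In cells with 0 of the others Ndufa4l2 (7.03 and 5.32 CPM), Bnip3 (31.9 and 28.8 CPM) and Ankrd37 (13.0 and 8.12 CPM) were higher in the positive library. Aldoc (9.12 and 7.72 CPM) and Egln3 (5.74 and 4.56 CPM) were too, with overlapping intervals. Egln1 (16.7 and 23.3 CPM) and Bhlhe40 (2.06 and 3.47 CPM) were lower there, and Ndrg1 was close (2.25 and 2.29 CPM). Cells with more members were shallower at full depth (a median of 34707 UMIs in the highest Ndufa4l2 class of the negative library against 39844 in the lowest), and the part of depth in these levels was not tested beyond the thinning, although cells between 20000 and 40000 UMIs gave a median log2 ratio over the members of 3.31 and 2.86, positive and negative.

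**Figure D4:**
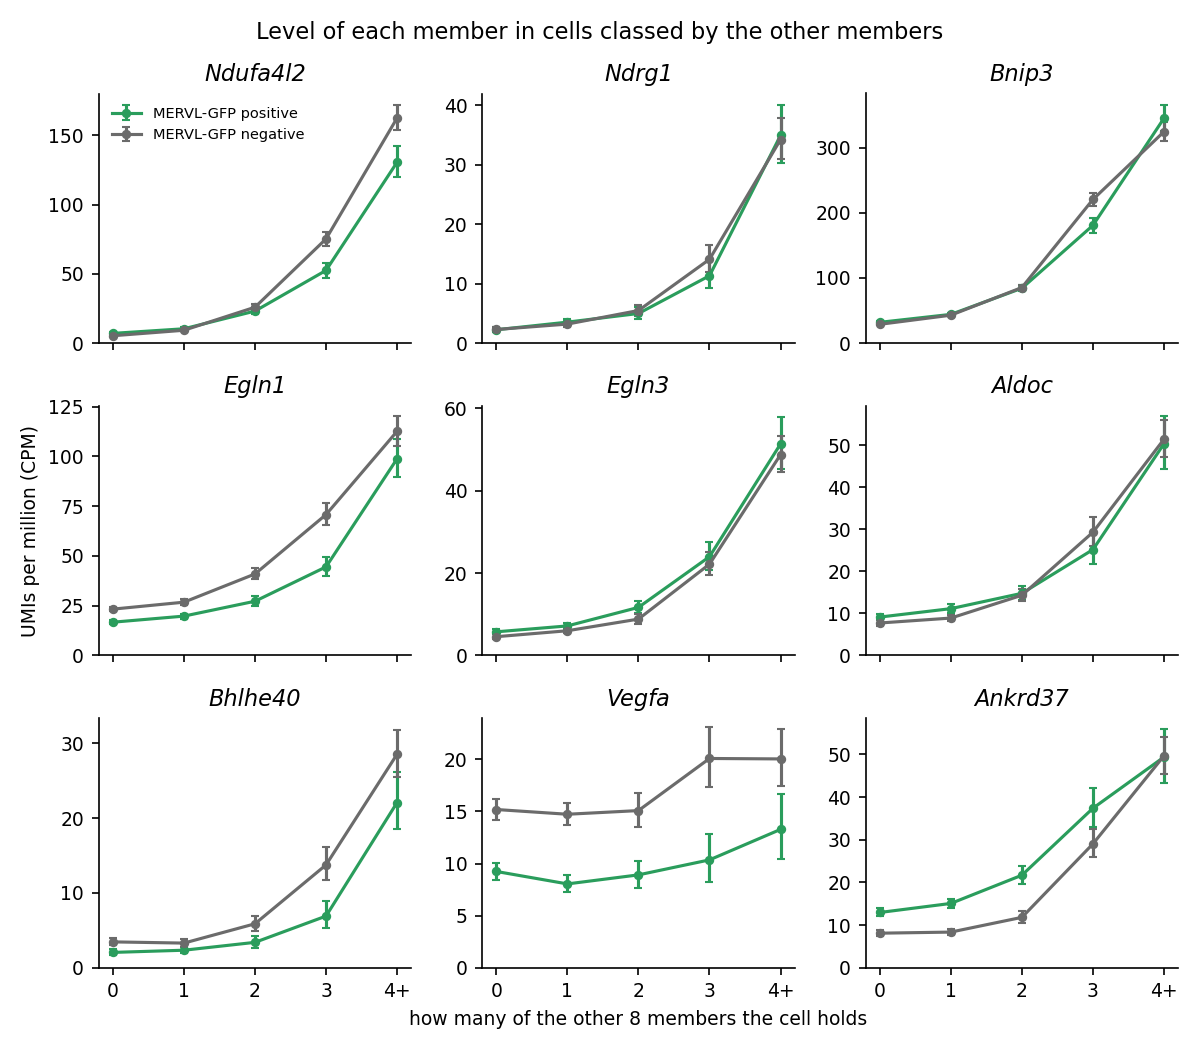
Level of each member in CPM (vertical axes, starting at 0 and different for each gene) in cells classed by how many of the other 8 members they hold after thinning, for the positive (green) and negative (grey) library, with exact Poisson 95% intervals. For 8 members the level climbs steeply, to 30.5-fold for Ndufa4l2 in the negative library, while Vegfa runs from 8.04 to 13.3 CPM over the classes of the positive library and from 14.7 to 20.1 CPM over those of the negative.

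Genes outside the set that are known to act in oxygen sensing or to be HIF targets were then compared between responding and other cells of the same library. The list held 64 genes, of which 63 were in the tables. In the positive library 44 of them met the minimum of 10 CPM, and 16 were higher and 0 lower in responding cells by a factor of at least 2, against 1.48% of all 8321 genes higher and 1.42% lower. In the negative library 42 met it, and 19 were higher and 0 lower, against 1.14% of all 7484 genes higher and 0.267% lower. The median log2 ratio over the list was 0.76 and 0.79, where that over all genes was 0.05 and 0.01. The minimum could be met in responding cells alone, which favours genes that are high there: 3 of the 16 (Pfkfb3, Cox4i2 and Kdm4b) and 2 of the 19 (Kdm4b and Stc2) entered in that way. With the minimum set on responding and other cells together, a choice made after the values were seen, 13 of 39 genes were higher and 0 lower in the positive library, against 0.656% and 1.49% of all 7780 genes, and 17 of 39 were higher and 0 lower in the negative library, against 0.693% and 0.269% of all 7072 genes. The list medians were then 0.65 and 0.74. The members themselves chose the responding cells and are left out of these counts.

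The group of glycolysis and glucose entry had 8 of 18 genes higher by the factor of 2 in the positive and 8 of 17 in the negative library. The shares over all genes were 1.48% and 1.14%. The group's median log2 ratios were 0.88 and 0.90, where those over all genes were 0.05 and 0.01. Slc16a3, which exports lactate, had 113 CPM (101 to 126) in responding and 23.9 CPM (23.0 to 24.7) in other cells of the positive library, and 84.3 CPM (77.2 to 91.9) and 17.5 CPM (16.8 to 18.2) in the negative library. Pgk1, a glycolytic kinase that makes ATP, had 1241 against 474 CPM and 1686 against 597 CPM. Slc2a1, a glucose carrier, had 437 against 179 CPM and 351 against 123 CPM. Tpi1 (401 against 157 CPM, and 419 against 181 CPM) and Gpi1 (283 against 130 CPM, and 318 against 126 CPM), both sugar phosphate isomerases, passed in both libraries, and Pfkfb3, which makes an activator of glycolysis, had 13.0 against 3.94 CPM in the positive library. It reached the minimum in responding cells alone, and by the minimum over all cells 7 of 16 genes passed in that library. Gapdh was higher by less, with 3605 against 2635 CPM and 3875 against 2828 CPM.

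A list of enzymes that modify collagen, together with Ero1a, had 3 of 6 genes past the factor in the positive and 5 of 5 in the negative library. Ero1a, an oxidase that helps form disulphide bonds in the endoplasmic reticulum and is no collagen enzyme itself, had 230 CPM (213 to 248) against 53.8 CPM (52.6 to 55.1) and 123 CPM (114 to 132) against 31.6 CPM (30.7 to 32.5). P4ha1, a collagen prolyl hydroxylase, had 145 against 51.2 CPM and 96.1 against 28.9 CPM. P4ha2 of the same family had 141 against 105 CPM in the positive library and 35.4 against 10.9 CPM in the negative library, where its level in other cells was far lower. Plod2, a lysyl hydroxylase, had 158 against 65.4 CPM and 116 against 36.3 CPM, and Loxl2, a lysyl oxidase, had 44.8 against 23.9 CPM and 30.5 against 13.4 CPM.

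A list of 5 genes of mitochondrial proteins and Mxi1, a nuclear antagonist of Myc, had 3 of 6 past the factor in each library. They were Higd1a (369 against 149 CPM, and 469 against 194 CPM), Fam162a (454 against 199 CPM, and 485 against 178 CPM) and Cox4i2 (22.9 against 7.49 CPM, and 29.9 against 11.3 CPM), the last of which met the minimum in the positive library through responding cells alone. Bnip3l, the close relative of Bnip3, had 98.2 against 59.0 CPM and 104 against 61.8 CPM, and Mxi1 had 27.0 against 20.5 CPM and 41.4 against 25.5 CPM. Ndufa4, a subunit of the respiratory chain whose paralog Ndufa4l2 is the member with the widest range, went the other way, with 1134 CPM (1096 to 1173) against 1327 CPM (1321 to 1334), and 1436 CPM (1406 to 1466) against 1652 CPM (1646 to 1659). Of the transcription and chromatin group 2 of 7 passed in each library. They were Ddit4, an inhibitor of mTOR signalling (82.1 against 32.8 CPM, and 52.4 against 16.4 CPM), and Kdm4b, a histone demethylase (13.3 against 5.56 CPM, and 10.1 against 4.47 CPM), which met the minimum through responding cells alone in both libraries, so that 1 of 6 passed by the minimum over all cells. Jmjd6, an oxygen-dependent lysyl hydroxylase, was higher by less (51.3 against 36.2 CPM, and 68.7 against 44.2 CPM), as was Insig2, a regulator of sterol synthesis (40.4 against 28.3 CPM, and 32.3 against 26.5 CPM). Of the secreted and receptor group 2 of 12 genes reached 10 CPM in each library, Stc2, a secreted glycoprotein, among them through responding cells alone, with 15.3 against 6.99 CPM in the negative and 10.9 against 5.54 CPM in the positive library. By the minimum over all cells 0 of 1 passed in each. Igfbp3, a carrier of insulin-like growth factors, had 28.7 against 37.05 CPM in the positive library, and Angptl4, an inhibitor of lipoprotein lipase, had 6.69 against 10.6 CPM in the negative.

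The sensing machinery itself had 0 of 5 genes past the factor in either library, which with 5 genes is near the share over all genes (for the positive library 1.48% higher and 1.42% lower, for the negative 1.14% and 0.267%). Hif1a, the oxygen-regulated subunit, had 59.2 CPM (50.7 to 68.7) in responding and 68.5 CPM (67.1 to 69.9) in other cells of the positive library, and 51.1 CPM (45.6 to 57.0) and 68.6 CPM (67.3 to 69.9) in the negative library. Arnt, its partner, was higher in responding cells, at 70.8 against 55.0 CPM and 30.2 against 22.3 CPM, and Vhl, Egln2 and Hif1an had ratios whose intervals included 1 in both libraries. Epas1, Hif3a and Arnt2 did not reach 10 CPM. HIF is controlled at the level of the protein, which these data do not measure.

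Other lists were read beside these values. Integrated stress response genes, which cells also raise under starvation, had 0 of 8 past the factor in the positive and 1 of 9 in the negative library, Ddit3 (25.6 against 7.64 CPM), which met the minimum through responding cells alone, with list medians of -0.07 and -0.02. Counts of 0 and 1 in so few genes are near the 1.48% and 1.14% of all genes that were higher. Of the primitive endoderm markers 1 of 5 was lower by the factor in responding cells of the positive library (Dab2, 19.5 against 84.5 CPM), against 1.42% of all genes, and 4 of 4 were in the negative library (Dab2, Gata6, Sox17 and Pdgfra), or 3 of 3 by the minimum over all cells, against 0.267% and 0.269%. Of the 2C-like list 2 of 5 genes were lower by the factor in responding cells of the positive library, against 1.42% of all genes. They were Zscan4a (29.4 against 84.1 CPM) and Zscan4d (55.8 against 121 CPM), and GFP had 182 against 204 CPM. The list median was -0.73, where that over all genes was 0.05. In the negative library 0 of its 7 genes met the minimum. Of 8 pluripotency genes 1 passed in each library, Tdgf1, a coreceptor of Nodal, with 1868 against 782 CPM and 1722 against 770 CPM. Nanog was lower, with 291 against 415 CPM and 162 against 193 CPM. Of the trophoblast list 1 of 2 genes was higher by the factor in the positive library, Krt8, a keratin, with 105 against 30.3 CPM. The other gene that met the minimum was not higher there, and in the negative library 0 of 1 passed. Counts in so few genes say little beside the 1.48% and 1.14% of all genes. The part of these lists in the responding cells was not tested.

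Between the libraries, and not by cell, 4 of the 42 list genes with 10 CPM were higher in the positive library by a factor of at least 2 and 1 was lower, against 7.01% and 0.995% of all genes. Counts this small are near that background and say little about the list. P4ha2 (107 against 11.9 CPM), Igfbp3 (37.6 against 4.19 CPM), Arnt (55.8 against 22.6 CPM) and Slc2a3 (741 against 328 CPM) were higher. Pdk1, a kinase that inhibits pyruvate dehydrogenase, was lower (28.6 against 61.6 CPM). The list median of -0.01 lay below the median of all genes, 0.14, but the groups differed. The median was 0.76 for 6 genes of collagen modification with Ero1a and 1.12 for 2 secreted or receptor genes. It was 0.21 for 5 sensing genes and 0.10 for 6 of transcription and chromatin. For 17 glycolysis genes it was -0.19 and for the 6 of the mitochondrial list -0.32. Of the 5 genes past the factor, Slc2a3 and P4ha2 also passed it between responding and other cells of the negative library, and 0 did in the positive library.

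A ranking of 11003 genes by their correlation, cell by cell, with the sum of the members did not use that list but used the same cells. The measure was the mean over the 2 libraries of Pearson's r across thinned cells, whose median over genes was 0.0046. Pgk1 came first (0.34 in the positive and 0.54 in the negative library), followed by Slc16a3 (0.37 and 0.38), Aldoa (0.30 and 0.44), Anxa2 (0.25 and 0.46), Tpi1 (0.31 and 0.38), Ero1a (0.29 and 0.37), Ldha (0.29 and 0.36), Fam162a (0.24 and 0.38), Slc2a1 (0.25 and 0.36) and Higd1a (0.24 and 0.36). Of these 10, 9 belonged to the list above, which has 63 genes in the tables. The other was Anxa2, a calcium-dependent membrane-binding protein, with 94.4 against 20.3 CPM in responding and other cells of the positive library and 110 against 13.4 CPM in those of the negative library. The list was chosen with earlier results of these data known, so its overlap with the ranking is a description and no separate support. The lowest were H2az1, a histone variant (-0.23 and -0.31), Hspd1, a mitochondrial chaperonin (-0.20 and -0.29), Atp5g1, a subunit of ATP synthase (-0.19 and -0.28), Set (-0.19 and -0.27) and Dtymk, which makes thymidine nucleotides (-0.15 and -0.28).

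The relation to the 2C-like state was followed in the positive library, where cells were classed by their thinned UMIs of Zscan4a to Zscan4f together, near-identical copies that mark that state. There were 1933 cells with 0, 1608 with 1 to 4 and 861 with 5 or more. Of these 3.10% (2.38 to 3.98), 2.49% (1.78 to 3.37) and 1.05% (0.479 to 1.97) were responding cells. The share in the highest class was 2.97-fold (1.46 to 6.81) lower than in the lowest. Seen from the other side, 45.0% of responding cells (35.4 to 54.8) and 56.4% of other cells (54.9 to 57.9) had a Zscan4 UMI. The difference was smaller, and its interval reached 1, when cells were called from the 7 members other than Egln1 and Vegfa, with at least 4 of 7, a choice made after the values of these 2 were seen. The shares were then 3.52%, 2.99% and 2.09%, and the ratio of 0.594 had an interval of 0.333 to 1.01. Among negative-library cells 0 of the 178 responding and 10 of the others had a Zscan4 UMI, too few to compare.

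The members did not move together along Zscan4. Egln1 was the lowest relative to cells without Zscan4, with 27.2 CPM (26.0 to 28.5) in cells with 0 Zscan4 UMIs, 22.7 CPM (21.4 to 24.1) with 1 to 4 and 12.3 CPM (10.9 to 13.9) with 5 or more, 2.21-fold (1.94 to 2.53) lower. Vegfa went the same way, with 10.7 CPM (9.89 to 11.5), 7.98 CPM (7.23 to 8.80) and 6.32 CPM (5.29 to 7.50). Bhlhe40 had 3.93, 3.46 and 2.83 CPM and Ndrg1 had 5.57, 4.86 and 4.36 CPM. For all 4 the interval of the ratio between the outer classes lay below 1, but that of Ndrg1 depended on the values used: its log2 ratio of -0.30 moved to -0.03 on thinned UMIs and to -0.02 when the high class was cells with 10 or more Zscan4 UMIs, and it was seen in 4.60%, 4.23% and 4.18% of thinned cells.

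Bnip3 and Ankrd37 went the other way. Bnip3 had 51.9 CPM (50.1 to 53.7), 54.5 CPM (52.5 to 56.5) and 69.1 CPM (65.6 to 72.8), 1.33-fold (1.25 to 1.42) higher in the highest class. Ankrd37 had 15.7 CPM (14.7 to 16.7), 16.9 CPM (15.7 to 18.0) and 25.05 CPM (22.9 to 27.3), 1.60-fold (1.43 to 1.78) higher. The sizes depended on the cells and classes used: the log2 ratio of Bnip3, 0.41, was 0.25 among cells of 20000 to 40000 UMIs and 0.18 with 1 or more Zscan4 UMIs as the high class, and that of Ankrd37, 0.64, was 0.28 with 1 or more and 0.95 with 10 or more. That of Egln1, -1.09, was -0.45 with 1 or more. Egln3, at 9.32, 10.3 and 11.6 CPM, and Aldoc, at 12.6, 13.2 and 14.5 CPM, were higher by less. Ndufa4l2 had 17.5, 16.2 and 16.6 CPM, and the interval of its ratio, 0.839 to 1.07, included 1. Of the 7 members that met the 10 CPM minimum 0 were higher by a factor of 2, against 7.59% of 8323 genes, and 1, Egln1, was lower, against 2.69%. The median log2 ratio of the members was -0.07 and that of all genes -0.09.

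Co-detection was also lower in cells high in Zscan4. Over the 28 pairs without Vegfa, the cells holding both members summed to 1.74 times the product in cells with 0 Zscan4 UMIs, 1.67 times with 1 to 4 and 1.34 times with 5 or more. The Ndufa4l2 and Bnip3 correlation was 0.38, 0.35 and 0.25 in those classes. A mean of 1.16, 1.13 and 1.14 members was detected per cell, nearly the same in the 3 classes. Depth moved with the classes, with a median of 32916, 30488 and 22557 UMIs per cell before thinning, as did the mitochondrial share (2.36%, 2.53% and 3.01%) and the share of cells with primitive endoderm markers (10.3%, 10.1% and 4.99%). Among cells of 20000 to 40000 UMIs the ratio of responding shares was 0.422 and without the cells marked as primitive endoderm it was 0.341, against 0.337 over all cells.

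The reporter transcript gave a similar picture with differences. Cells of the positive library with 0, 1 to 4 and 5 or more thinned GFP UMIs numbered 1679, 1948 and 775, and 3.57% (2.74 to 4.58), 1.80% (1.25 to 2.49) and 1.81% (0.991 to 3.01) of them were responding, the highest class 1.98-fold (1.09 to 3.83) below the lowest. Called without Egln1 and Vegfa the shares were 3.81%, 2.31% and 3.23%, and the ratio of 0.846 had an interval of 0.511 to 1.36. Bnip3 had 48.8, 54.0 and 78.8 CPM across the classes, 1.62-fold (1.52 to 1.72) higher, and Ankrd37 had 15.7, 17.9 and 21.5 CPM. Aldoc had 11.5, 13.6 and 16.3 CPM, 1.42-fold (1.24 to 1.63) higher, a log2 ratio of 0.47 that was 0.19 on thinned UMIs. Egln1 had 27.0, 21.5 and 18.3 CPM, 1.48-fold (1.32 to 1.66) lower, and Vegfa had 10.6, 8.36 and 6.54 CPM, 1.62-fold (1.34 to 1.97) lower. The log2 ratio of Bnip3, 0.68, was 0.52 among cells of 20000 to 40000 UMIs, and that of Egln1, -0.54, was -0.33 with 10 or more GFP UMIs and -0.93 on thinned UMIs. Ndufa4l2 again had an interval that included 1 (0.921 to 1.17), and so did Bhlhe40 (0.586 to 1.02). Ndrg1 was lower, with a ratio of 0.751 (0.591 to 0.945), and Egln3 was higher, with 1.19 (1.02 to 1.40). Of 7 members at 10 CPM, 0 were higher, against 4.82% of 8215 genes, and 0 were lower, against 1.83%. Over the 28 pairs without Vegfa, cells holding both members summed to 1.81, 1.54 and 1.48 times the product across the GFP classes. The Ndufa4l2 and Bnip3 correlation was 0.43, 0.27 and 0.34, and so did not fall steadily. No interval was computed for these values by class.

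**Figure D5:**
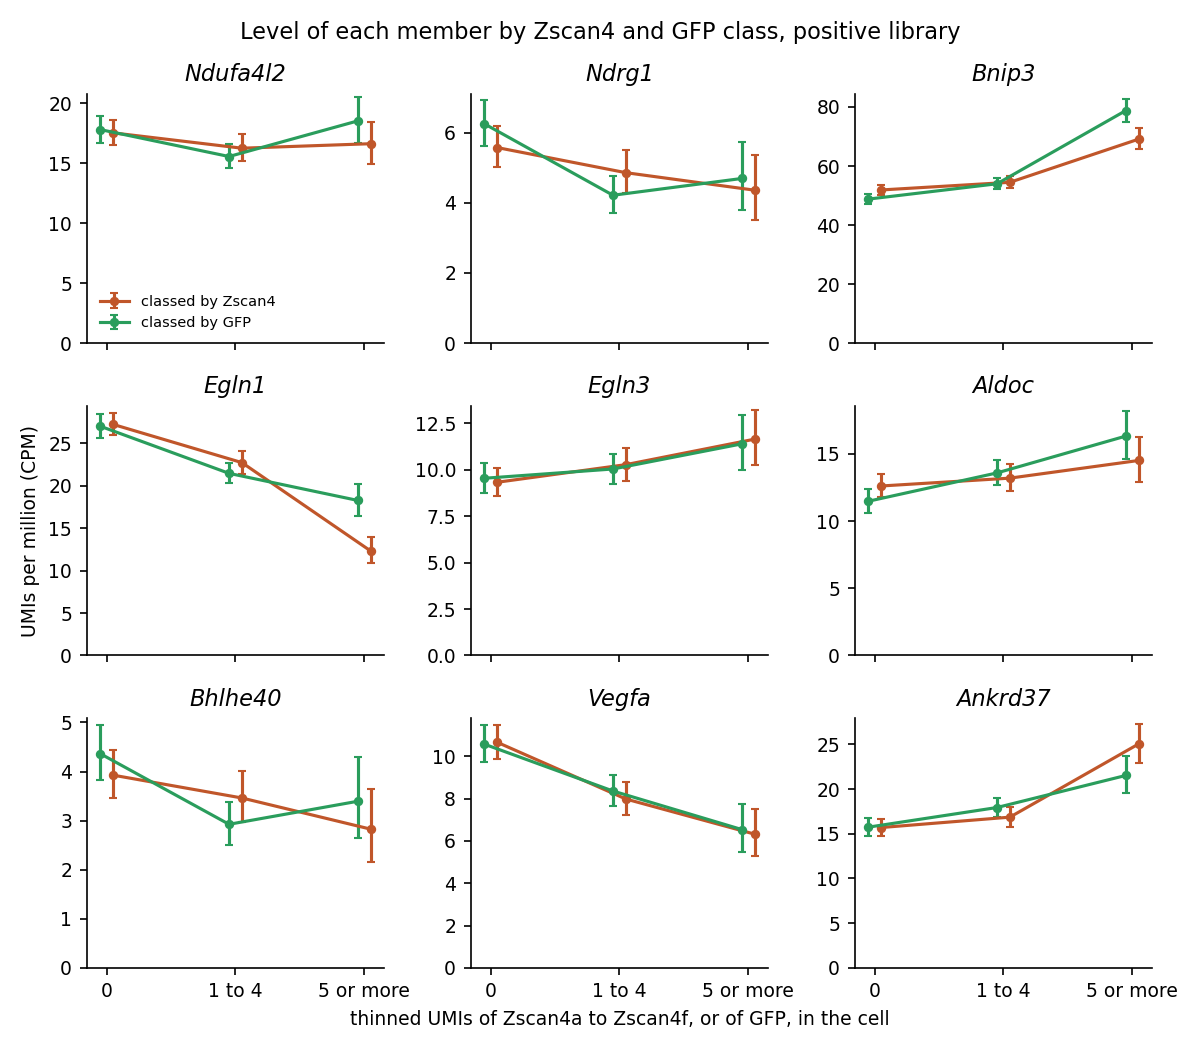
Level of each member in CPM (vertical axes, starting at 0 and different for each gene) in positive-library cells with 0, 1 to 4 and 5 or more thinned UMIs of Zscan4a to Zscan4f (orange) or of GFP (green), with exact Poisson 95% intervals. Egln1 and Vegfa are lower and Bnip3 and Ankrd37 higher in the highest classes, and Ndufa4l2 stays between 15.6 and 18.5.

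Cells that held at least 3 of 9 primitive endoderm markers, 404 in the positive and 185 in the negative library, showed another mix. Ndufa4l2 had 5.01 CPM (3.86 to 6.40) in them and 18.1 CPM (17.4 to 18.9) in other cells of the positive library, 3.62-fold (2.82 to 4.72) lower, and 5.43 CPM (3.93 to 7.31) against 23.9 CPM (23.1 to 24.7) in the negative library, 4.41-fold (3.27 to 6.10) lower. Egln1 was higher in them, with 37.6 against 21.8 CPM and 49.1 against 33.3 CPM, and so was Vegfa, with 12.9 against 8.60 CPM and 29.4 against 14.9 CPM. Bnip3 was lower, with 46.0 against 56.5 CPM and 32.6 against 65.0 CPM, and Ankrd37 had 9.16 against 18.4 CPM and 10.5 against 13.2 CPM. Of the marked cells 1.24% (0.403 to 2.86) and 1.62% (0.336 to 4.67) were responding, against 2.60% (2.13 to 3.14) and 4.81% (4.14 to 5.56) of the other cells. Bhlhe40 had 4.23 against 3.52 CPM in the positive library, with a ratio whose interval included 1, and 2.90 against 6.53 CPM in the negative. Ndrg1 had 5.09 against 5.13 CPM and 3.03 against 6.44 CPM, Egln3 had 9.55 against 10.1 CPM and 5.43 against 10.2 CPM, and Aldoc had 10.6 against 13.4 CPM and 9.21 against 13.6 CPM.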

How the data were processed

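For each of the 2 libraries the authors deposited a sparse matrix of raw counts, a whole number for each gene in each cell. The submitters' processing notes name FastQC 0.11.2, Trim Galore 0.6.4, STAR 2.7.6a and the build mm10. Counting, strand and cell calling are not given in the sources used here, and the extraction text in the labels describes bulk kits. Counts are read as UMIs because cells carry barcodes. Gene positions come from GENCODE vM21 (GRCm38), and promoter bases from RefSeq.

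Cells with fewer than 1000 UMIs, fewer than 500 genes or over 20% mitochondrial UMIs were dropped. UMIs were summed and scaled to CPM. Ratios use CPM + 1 on the log2 scale where genes are compared with all genes, and plain CPM for intervals. A gene is called by size when it has 10 CPM in a group, 50 UMIs in all and a ratio of at least 2. No test was possible with 1 library per group. Levels within classes of cells use the full counts of the cells that were thinned. The members and lists were chosen with earlier results of these data known. Named are all 9 members, list genes past the size rule between libraries, the largest ratios of each group in responding cells, and the 10 most and 5 least alike genes. Genes named beyond that were chosen after their values were seen. Simulated data served to test the size rule, co-detection, the responding call and the likeness ranking, and in them not every cell called responding was an active one. TMM factors came from edgeR 4.0.16 (R 4.3.3), and all else was computed with numpy 2.4.6, pandas 2.3.3 and scipy 1.17.1 in Python 3.11.15.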

Additional observations from a re-analysis of the deposited data

How the results depend on the processing

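No paired analysis was possible because only 1 library stands for a group, and none could be left out. The responding share kept its direction, higher in the negative library, under every alternative run. It was 5.32% (positive) and 9.10% (negative) at 4 members, 0.954% and 2.17% at 6 members, 0.566% and 1.30% after thinning to 5000 UMIs, and 11.3% and 22.7% without thinning. In the negative library it was 6.51% among cells of 20000 to 40000 UMIs and 3.87% when called from the 8 members other than Vegfa, an alternative added after seeing the data. The median log2 of co-detection over the product was 0.75 and 0.88, and moved to 0.99 in the positive library at 5000 UMIs and to 0.37 and 0.32 without thinning.

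Between the libraries, genes higher in the positive library numbered 1418 at a factor of 1.5 and 241 at 4, and 1243 with a minimum of 1 CPM or with none. Lower genes numbered 393 at 1.5, 1 at 4, 260 with TMM and 258 with median of ratios. List genes higher numbered 2 under TMM, median of ratios and a factor of 4, and 13 at 1.5. List genes lower numbered 2 under TMM and median of ratios, 3 at 1.5 and 0 at 4. The median of the members stayed between -0.50 and -0.24 under the 9 alternatives run. No value changed sign where its main interval excluded no change. Precision is limited by 1 library a group, by few UMIs per cell and by an unknown number of doublets.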
